A study of Mus musculus with 24 samples.

Results

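Day 4 embryoid bodies that lacked both Smad2 and Smad3 were compared, across all genes, with day 4 embryoid bodies that lacked Smad3 only, so the comparison shows what differs when Smad2 is lost on top of Smad3. The members are 4 of the 24 samples of the series, chosen by their titles: 2 double knockout libraries (genotype label Smad2/3DKO) and 2 Smad3 knockout libraries (Smad3-/-). All came from E14Tg2a.IV, a mouse embryonic stem cell line, and were left to differentiate in suspension, as aggregates called embryoid bodies, in medium without LIF, the factor that holds such cells in self-renewal. The series holds 10 RNA libraries in all. A pair of Smad2 knockout libraries (Smad2-/-) and a pair of WT libraries, also day 4 embryoid bodies of this line, were used to set the loss of Smad2 with Smad3 present beside it. WT stem cells at day 0 entered the fit, and their levels are given for a few genes. The 14 samples of chromatin immunoprecipitation were not analysed here.

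SMAD2 and SMAD3 are the transcription factors that receptors for Nodal, Activin and TGF-beta phosphorylate. They enter the nucleus with SMAD4 and bind DNA beside partners such as FOXH1. In the mouse embryo Nodal maintains the epiblast, drives formation of the primitive streak, where mesoderm and endoderm arise, and induces its own inhibitors Lefty1, Lefty2 and Cer1. The comparison asks which genes still depend on Smad2 where Smad3 is already absent.

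Depth was 43410154 and 38596824 expected counts in the double knockout libraries, against 39550785 and 35733249 in the Smad3 knockout libraries. Levels are given as CPM, TMM-scaled counts per 1e+06 counts of a library, and fold changes as log2 of double knockout over Smad3 knockout with a standard error (SE), each from 2 libraries per group. A gene was called where edgeR's quasi-likelihood test over 19470 genes gave it a p under 0.05 after Benjamini-Hochberg adjustment. No label states separate cultures for the libraries of a group, and each knockout carries 1 line number in its file names. The p-values therefore reflect library-to-library spread, which may be technical, and the effect of a genotype cannot be told apart from that of its line. In bulk RNA, fewer cells of a type and less RNA per cell cannot be told apart. By their file names the libraries fall into 2 sequencing submissions: both double knockout libraries and replicate 1 of the Smad3 knockout are in the same submission, and replicate 2 of the Smad3 knockout is in the other.

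The targeted genes were read first. Smad2 (mm10 chromosome 18, 76241580 to 76310963, plus strand) had 22.2 and 22.7 CPM in the double knockout libraries, against 38.3 and 39.3 CPM in the Smad3 knockout libraries (log2 fold change -0.79, SE 0.18, adjusted p = 0.0179). Smad3 (chromosome 9, 63646767 to 63757994, minus strand) had 28 and 25.7 CPM in the double knockout, against 49.7 and 48.7 CPM in the Smad3 knockout (log2 fold change -0.87, SE 0.16, adjusted p = 0.00677). Both genes were lower in each double knockout library than in each Smad3 knockout library, and reads of both were present in every group. Smad3 in the Smad3 knockout libraries was no lower than the 42 and 44.9 CPM of the WT libraries, so gene totals of Smad3 do not check that label. Reads of a gene outside a deleted part would count toward its total, and which parts were deleted was not known here. Both calls rest on all 4 libraries: with each left out in turn the adjusted p was 0.107 to 0.128 for Smad2 and 0.052 to 0.0869 for Smad3. The call of Smad2 was also lost with limma on log2(TPM + 1) (adjusted p = 0.156) and on log2(TPM + 0.1) (0.186), with all libraries kept.

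Y-linked genes and Xist set the groups apart before any result. The Y-linked gene Uty had 0.353 and 0 CPM in the double knockout libraries, against 10.5 and 8.29 CPM in the Smad3 knockout libraries, and Eif2s3y had 1.27 and 0 CPM, against 26.6 and 25.2 CPM. Of 5 tested Y-linked genes 4 were called lower, with Y-linked reads low in double knockout replicate 1 and close to none in replicate 2. Xist, the RNA that coats an inactive X chromosome, was examined after its values were seen: it had 74.2 and 104 CPM in the double knockout libraries, against 3.84 and 3.43 CPM in the Smad3 knockout libraries (log2 fold change 4.61, SE 0.35, adjusted p = 0.000116). Strand use in counting was not known, so reads of Xist and of its antisense partner Tsix cannot be told apart. The part of these differences in the results below was not tested.

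Across the genome, 3025 of 19470 tested genes (15.5%) were called, 1466 of them higher (7.53% of those tested) and 1559 lower (8.01%) in the double knockout. Most calls were large: 1063 rose and 1291 fell more than 2-fold, and 234 rose and 263 fell more than 8-fold. The median log2 fold change of all tested genes was -0.01. The counts called in each gene list below are to be read beside the shares of 7.53% and 8.01%. The calls depended on having both libraries of each group, since leaving out 1 of the 4 left 1028 to 1235 calls. With Smad3 knockout replicate 2 left out, all libraries compared belonged to the same submission, and 1086 genes were called.

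**Figure D1:**
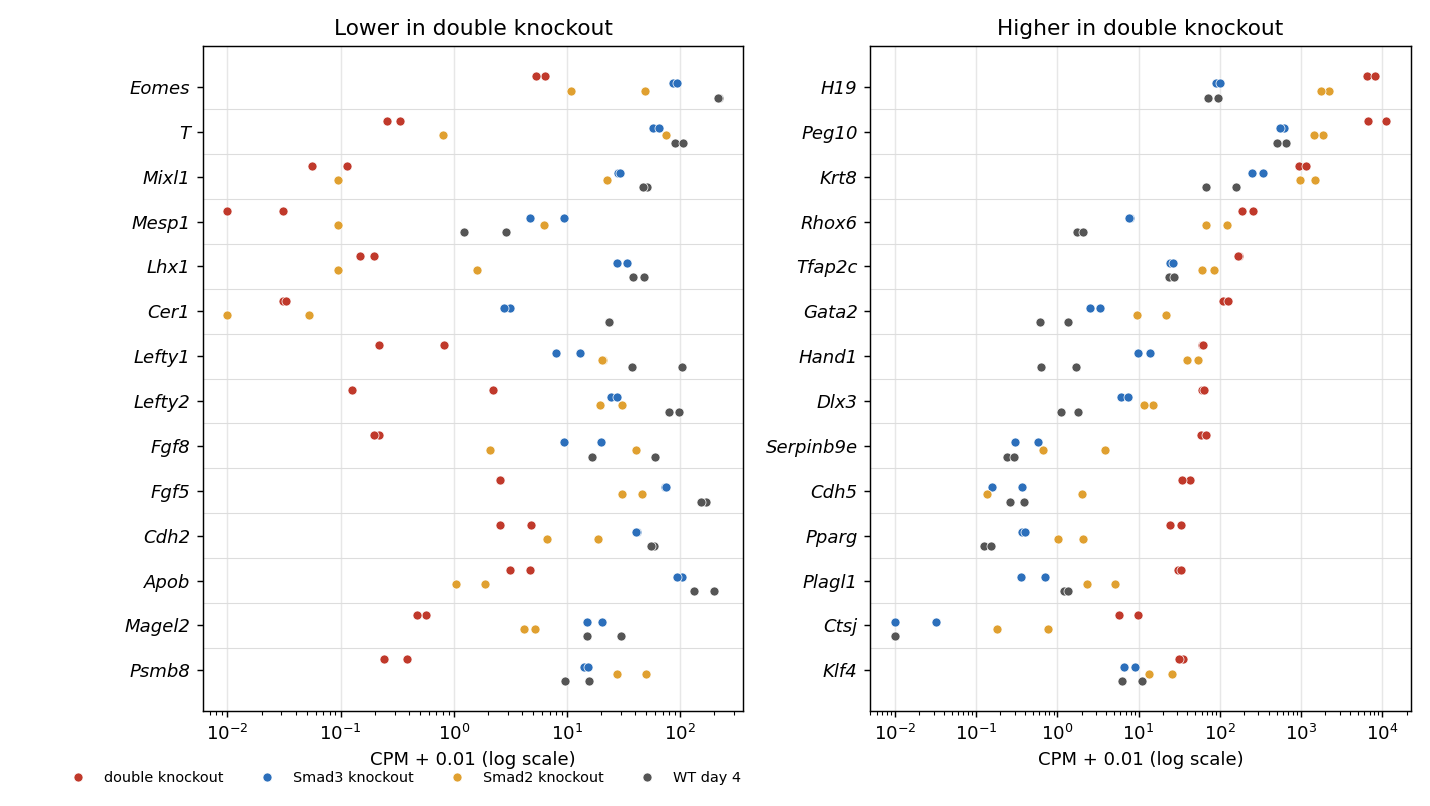
Levels of 28 genes in the single libraries of the 4 day 4 groups, as CPM + 0.01 on a log scale, each point 1 library. The left panel holds genes lower and the right panel genes higher in the double knockout, and in every gene shown the double knockout points do not overlap those of the Smad3 knockout.

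Genes of the Nodal loop fell. Of 20 genes of the Nodal and Activin response list, 12 were called lower and 2 higher, and the list median was -1.47. Nodal itself had 11.9 and 8.63 CPM in the double knockout, against 27.9 and 33.7 CPM in the Smad3 knockout (log2 fold change -1.59, SE 0.39, adjusted p = 0.0239). The inhibitor Lefty1 had 0.81 and 0.209 CPM, against 7.95 and 13 CPM (log2 fold change -4.33, SE 0.62, adjusted p = 0.0021). Both double knockout libraries lay below both Smad3 knockout libraries in each gene. Lefty2 had 2.22 and 0.116 CPM in the double knockout, against 24.3 and 27.6 CPM in the Smad3 knockout (log2 fold change -4.45, SE 0.77, adjusted p = 0.0051), and its double knockout libraries differed more from each other than those of most genes named here. Cer1, a secreted antagonist of Nodal, BMP and WNT, had 0.0208 and 0.0232 CPM (2 counts in all), against 3.13 and 2.74 CPM (252 counts), a ratio of 137 with a 95% counting interval of 37.6 to 1140 (adjusted p = 0.000231). In none of these genes did the libraries of the groups overlap.

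Among 23 tested SMAD pathway components 6 were called lower and 0 higher, with a median of -0.07. They included Foxh1, the DNA-binding partner, at 25.1 and 20.9 CPM against 51.8 and 69.8 CPM (log2 fold change -1.40, adjusted p = 0.0377), Skil, a feedback repressor of SMAD proteins, and Smad1, a BMP SMAD, whose log2 fold changes were -1.24 (adjusted p = 0.00469) and -1.08 (adjusted p = 0.0167). Smad4, which partners every receptor-activated SMAD and lies on chromosome 18 like Smad2, had 154 and 141 CPM in the double knockout, against 116 and 111 CPM in the Smad3 knockout, and was not called (log2 fold change 0.38, SE 0.17, adjusted p = 0.165). Without double knockout replicate 1, double knockout replicate 2, Smad3 knockout replicate 1 and Smad3 knockout replicate 2, the response list had 7, 7, 10 and 9 members called lower. The call of Nodal was lost in each case (adjusted p = 0.0673 to 0.183), as were those of Foxh1 (0.078 to 0.227) and Smad1 (0.0756 to 0.126), and that of Skil without double knockout replicate 2 (0.0638). The component list had 1, 0, 1 and 1 members called lower in these cases. With limma on log2(TPM + 1) and log2(TPM + 0.1) Foxh1 (adjusted p = 0.0715 and 0.0799) and Smad1 (0.0648 and 0.0891) were not called, and Foxh1 was also lost without any library of the day 0 WT or Smad2 knockout groups (0.0528 to 0.057), which only enter the estimate of its spread.

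Of 18 primitive streak genes 13 were called lower and 0 higher, with a median of -3.97, the lowest of the lists other than that of Y-linked genes (-4.88). T (Brachyury), the T-box factor of the streak and nascent mesoderm, had 0.249 and 0.325 CPM in the double knockout, against 56.9 and 64.6 CPM in the Smad3 knockout (log2 fold change -7.72, SE 1.68, adjusted p = 0.0144). Mixl1, a mesendoderm homeobox factor, had 0.104 and 0.0464 CPM, against 28.1 and 29.5 CPM (log2 fold change -8.50, SE 1.92, adjusted p = 0.0168). Eomes, the T-box factor needed for mesoderm delamination and endoderm, had 6.4 and 5.29 CPM, against 87.1 and 93.7 CPM (log2 fold change -3.95, SE 0.57, adjusted p = 0.00217). T and Mixl1 were thus close to none in both double knockout libraries, while Eomes kept a low level. Mesp1, a marker of early cardiac and head mesoderm, had 0.0208 and 0 CPM (1 count) in the double knockout, against 4.71 and 9.33 CPM (590 counts) in the Smad3 knockout, a ratio of 643 with a 95% counting interval of 115 to 25427 (adjusted p = 0.0159). Its relative Mesp2 was also called lower (log2 fold change -2.09, adjusted p = 0.00474), as were the FGF ligand genes Fgf8 (-6.19, adjusted p = 0.0175) and Fgf17 (-2.91, adjusted p = 0.0108). Cdx2, a posterior and trophoblast homeobox gene, had 1.91 and 1.67 CPM, against 1.67 and 1.75 CPM, and was not called (adjusted p = 0.968).

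The largest falls lay partly outside that list. Lhx1, a LIM homeobox factor of the streak and anterior mesendoderm, is itself in the list. It had 0.187 and 0.139 CPM in the double knockout, against 27.6 and 33.7 CPM in the Smad3 knockout (log2 fold change -7.52, SE 0.99, adjusted p = 0.00206). Aplnr, a receptor of early mesoderm, had 0.249 and 0.209 CPM, against 17.1 and 17 CPM (log2 fold change -6.20, adjusted p = 0.0133), and Rspo3, a secreted enhancer of WNT signals, had 0.0831 and 0.0464 CPM, against 5.62 and 5.03 CPM (log2 fold change -6.28, adjusted p = 0.0258). The potassium channel gene Kcnj3 had 0.311 and 0.418 CPM, against 36.2 and 29.4 CPM (log2 fold change -6.49, SE 0.40, adjusted p = 8.85e-05), and Trim67, a tripartite motif gene, fell by 6.97 on the log2 scale (adjusted p = 0.00125). Actc1, cardiac alpha actin, had 0.0415 and 0.162 CPM, against 6.71 and 7.87 CPM (log2 fold change -6.15, adjusted p = 0.00136). In these genes the higher double knockout library lay far under the lower Smad3 knockout library.

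For the streak list, the same 4 omissions (double knockout replicates 1 and 2, then Smad3 knockout replicates 1 and 2) left 3, 2, 9 and 5 members called lower and 0 higher, with medians of -4.23, -3.76, -4.13 and -3.78. Streak genes differed widely between the Smad2 knockout libraries, which enter the shared estimate of the spread (T had 74.3 and 0.79 CPM there). Without double knockout replicate 1 or 2 the calls of T (adjusted p = 0.119 in both), Mixl1 (0.121 and 0.139) and Aplnr (0.108 and 0.12) were lost. Those of Mesp1 (adjusted p = 0.0514 to 0.13), Fgf8 (0.061 to 0.135) and Fgf17 (0.0598 to 0.0947) were lost without either double knockout library and without Smad3 knockout replicate 2. That of Rspo3 was lost without any of the 4 (0.0654 to 0.176), and that of Mesp2 without double knockout replicate 2 (0.0588). With limma on log2(TPM + 1) Fgf17 (adjusted p = 0.0718) and Rspo3 (0.0547) were not called. No called gene named here changed sign in any of the 4.

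Organizer and endoderm genes fell in part. Of 12 tested organizer and axial mesendoderm genes 6 were called lower and 0 higher (median -1.51). Gsc, the organizer homeobox gene, had 0.187 and 0.116 CPM in the double knockout, against 1.95 and 2.96 CPM in the Smad3 knockout (log2 fold change -3.98, SE 0.87, adjusted p = 0.0145). Otx2, a homeobox factor of the epiblast and anterior regions, had 62.7 and 59.4 CPM, against 157 and 158 CPM (log2 fold change -1.37, adjusted p = 0.00213). Cyp26a1, which degrades retinoic acid, had 6.33 and 5.78 CPM, against 33.2 and 40.6 CPM (log2 fold change -2.61, adjusted p = 0.00587). Foxa2, the forkhead factor of axial mesendoderm and endoderm, had 2.74 and 0.997 CPM, against 4.71 and 6.27 CPM, and was not called (log2 fold change -1.55, SE 0.64, adjusted p = 0.142). Without 1 library the call of Gsc was lost in 3 of 4 cases (adjusted p = 0.0628 to 0.123) and held without Smad3 knockout replicate 1. It was also lost with limma on log2(TPM + 1) (0.0649). The call of Cyp26a1 was lost without double knockout replicate 1 or 2 (0.0542 and 0.0679). This list had 3, 3, 6 and 4 members called lower in the 4 omissions.

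Of 16 definitive endoderm genes 7 were called lower and 0 higher (median -0.75). Trh, the precursor of thyrotropin-releasing hormone and a marker of early definitive endoderm, had 29.3 and 21.8 CPM in the double knockout, against 147 and 168 CPM in the Smad3 knockout (log2 fold change -2.62, SE 0.25, adjusted p = 0.000326). Rab38, a small GTPase, and the forkhead factors Foxa1 and Foxa3 were also called, at log2 fold changes of -2.43 (adjusted p = 0.00217), -2.16 (adjusted p = 0.00579) and -1.38 (adjusted p = 0.0169). In WT stem cells at day 0 Trh had 273 and 294 CPM, Rab38 2.09 and 2.29 CPM and Foxa3 1.52 and 1.66 CPM, while Foxa1 had 0.0896 and 0.105 CPM. Trh, Rab38 and Foxa3 were thus also present before differentiation and are not particular to endoderm in this line. Sox17, the endoderm SOX factor, had 4.26 and 3.85 CPM, against 3.13 and 5.16 CPM, with overlapping libraries (log2 fold change -0.03, SE 0.47, adjusted p = 0.979). The 4 omissions left 3, 2, 3 and 3 endoderm genes called, with Foxa3 lost in each (adjusted p = 0.0859 to 0.13, and 0.0705 and 0.0889 with limma on log2(TPM + 1) and log2(TPM + 0.1)) and Foxa1 lost without double knockout replicate 2 (0.0565).

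Extraembryonic endoderm lines the yolk sac. Of 22 of its genes, 8 were called lower and 1 higher (median -0.62). The lipoprotein gene Apob had 4.65 and 3.13 CPM in the double knockout, against 103 and 94.1 CPM in the Smad3 knockout (log2 fold change -4.66, SE 0.35, adjusted p = 0.000116). Afp, the fetal plasma protein, had 1.29 and 3.66 CPM, against 58 and 53.4 CPM (log2 fold change -4.50, SE 0.49, adjusted p = 0.000605), and Apoa1, another apolipoprotein, had 1.35 and 1.3 CPM, against 17.5 and 20.4 CPM (log2 fold change -3.84, adjusted p = 0.0009). These secreted products of visceral endoderm were low in both double knockout libraries. The endocytic receptor Lrp2 had 133 and 131 CPM, against 368 and 357 CPM (log2 fold change -1.46, adjusted p = 0.000673). The transcription factors of the same tissue were not called: Gata6 had 10.7 and 7.45 CPM, against 9.59 and 10.1 CPM (log2 fold change -0.12, adjusted p = 0.818), and Gata4 had 16.5 and 13.8 CPM, against 24.8 and 27.5 CPM (log2 fold change -0.79, adjusted p = 0.103). Lama1, a laminin chain of basement membranes made by parietal endoderm, rose, with 201 and 186 CPM, against 62.4 and 66.4 CPM (log2 fold change 1.59, SE 0.18, adjusted p = 0.000808). Gata4 was named here after its values were seen.

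**Figure D2:**
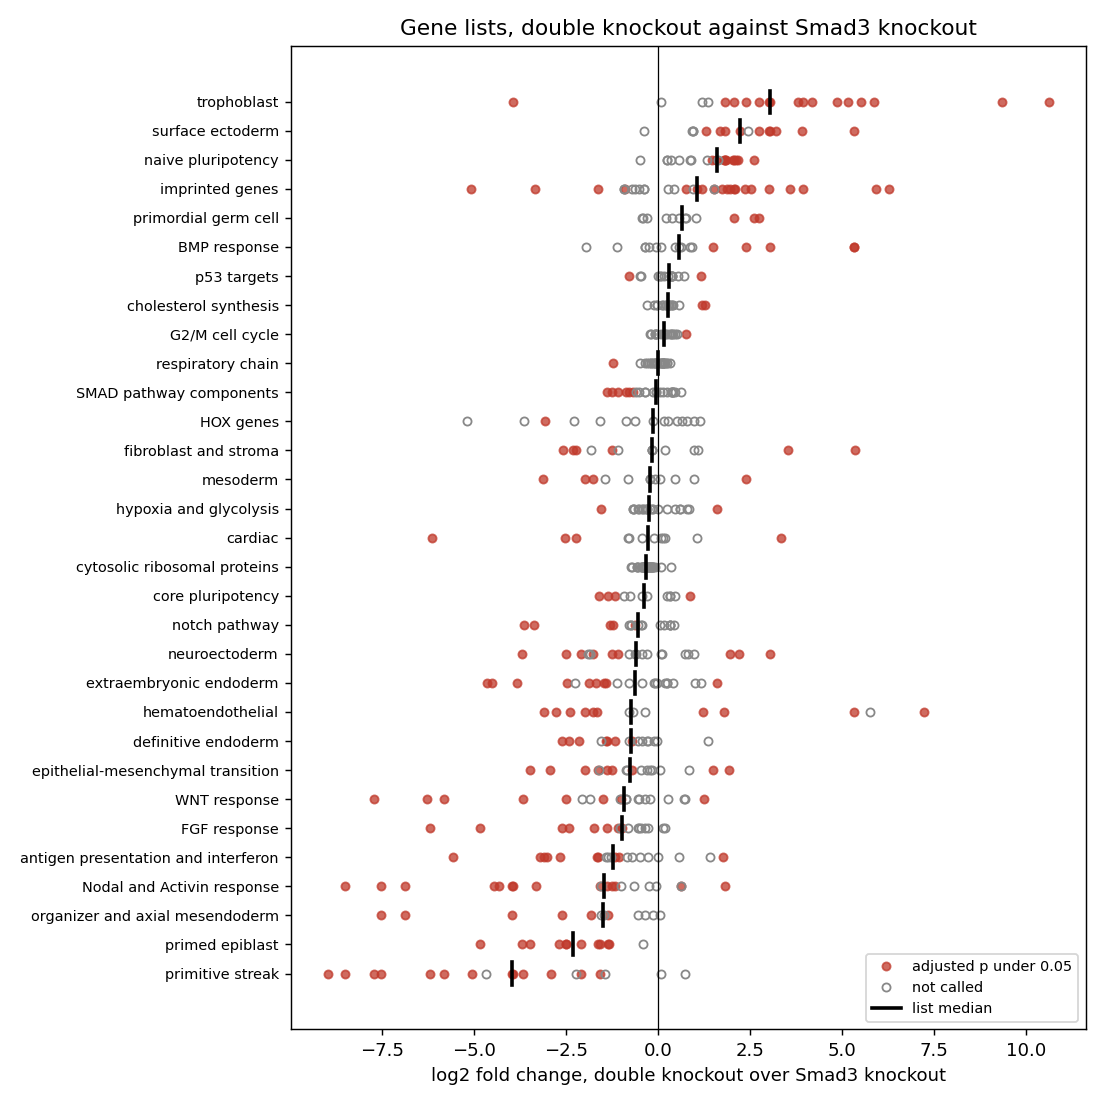
Log2 fold change, double knockout over Smad3 knockout, of every tested member of 31 gene lists, each point a gene, filled where the adjusted p was under 0.05, with the list median as a bar. Primitive streak (median -3.97) and primed epiblast (-2.30) lie at the low end and trophoblast (3.05) at the high end.

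Pluripotency genes moved in opposite directions by state. Of 12 primed epiblast genes, which mark the later, post-implantation state, 11 were called lower (median -2.30), and of 20 naive pluripotency genes, which mark the earlier state, 11 were called higher and 0 lower (median 1.59). Fgf5, the classical marker of primed epiblast, had 2.55 and 2.57 CPM in the double knockout, against 73.1 and 74.1 CPM in the Smad3 knockout (log2 fold change -4.84, SE 0.24, adjusted p = 3.76e-05). Dnmt3b, a de novo DNA methyltransferase of that state, had 205 and 205 CPM, against 624 and 616 CPM (log2 fold change -1.59, SE 0.18, adjusted p = 0.000735). The zinc finger factor Sall2 had 14.6 and 14.5 CPM, against 92 and 94.3 CPM (log2 fold change -2.68, adjusted p = 8.85e-05). Replicates of these genes lay close together and the groups far apart.

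Among naive genes Zfp42 (Rex1) had 121 and 94.5 CPM in the double knockout, against 28 and 24.6 CPM in the Smad3 knockout (log2 fold change 2.03, SE 0.32, adjusted p = 0.0034). Klf4 had 35.6 and 31.4 CPM, against 6.55 and 9.01 CPM (log2 fold change 2.11, SE 0.37, adjusted p = 0.00507). Nr5a2, a nuclear receptor, and Prdm14, a repressor of differentiation, rose by 2.18 (adjusted p = 0.00423) and 2.06 (adjusted p = 0.00216) on the log2 scale. In the core list of 12, 3 genes were called lower and 1 higher. Pou5f1 (Oct4) had 165 and 137 CPM, against 408 and 510 CPM (log2 fold change -1.61, SE 0.30, adjusted p = 0.00731), Tdgf1, the Nodal co-receptor Cripto, fell by 1.17 on the log2 scale (adjusted p = 0.00386), and Dppa2 rose by 0.87 (adjusted p = 0.0237). Nanog had 152 and 127 CPM, against 119 and 107 CPM, and was not called (adjusted p = 0.26). Naive genes and Pou5f1 thus went opposite ways. The 4 omissions left 9, 8, 11 and 9 primed genes called lower and 5, 7, 4 and 4 naive genes called higher. Pou5f1 was lost without double knockout replicate 2 (adjusted p = 0.0868) or Smad3 knockout replicate 2 (0.0562), Klf4 without Smad3 knockout replicate 1 (0.0535), Tdgf1 without double knockout replicate 1 (0.0548), and Dppa2 without any of the 4 (0.112 to 0.185).

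Descendant lineages gave mixed lists. Of 21 tested neuroectoderm genes 6 were called lower and 3 higher (median -0.61). Nes, nestin, had 23.9 and 17.6 CPM in the double knockout, against 118 and 118 CPM in the Smad3 knockout (log2 fold change -2.51, SE 0.19, adjusted p = 0.000113), and Sox3, an early neural and epiblast SOX factor, had 0.54 and 0.325 CPM, against 4.42 and 6.96 CPM (log2 fold change -3.70, adjusted p = 0.00209). Sox1, the earliest specific marker of neural fate, was low everywhere, at 0.955 and 0.626 CPM, against 0.355 and 0.444 CPM, and was not called (adjusted p = 0.18). Ncam1, a neural cell adhesion molecule also made elsewhere, rose, with 17.1 and 21.7 CPM, against 4.55 and 5.53 CPM (log2 fold change 1.95, adjusted p = 0.00252). The 4 omissions left 3, 3, 4 and 4 members called lower and 2, 1, 1 and 1 higher, with medians of -0.72, -0.09, -0.76 and -0.43.

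The 12 tested mesoderm genes held 3 called lower and 1 higher (median -0.22), and the 12 tested cardiac genes also 3 and 1 (median -0.27). Of all tested genes 8.01% were called lower and 7.53% higher, so the 1 called higher in each list is near that share. The vascular receptor Kdr had 5.52 and 2.48 CPM in the double knockout, against 13.7 and 13.9 CPM in the Smad3 knockout (log2 fold change -1.78, adjusted p = 0.0127). Of 14 tested hematoendothelial genes 6 were called lower and 4 higher (median -0.74): the blood factors Tal1 and Lmo2 and the surface antigen Cd34 had log2 fold changes of -2.78 (adjusted p = 0.00353), -3.11 (adjusted p = 0.00571) and -1.98 (adjusted p = 0.00571). Among those that rose was Cdh5, VE-cadherin of endothelium, with 42.8 and 34.3 CPM, against 0.355 and 0.148 CPM (log2 fold change 7.22, SE 1.04, adjusted p = 0.00213). The other 3 that rose were the blood factors Gata1 (log2 fold change 1.22, adjusted p = 0.0303, and 0.0926 to 0.201 in the 4 omissions and 0.0527 and 0.0532 without either day 0 WT library) and Gata2, given below, and Pecam1, an adhesion molecule of endothelium (log2 fold change 1.78, adjusted p = 0.00451), so blood factors stood on both sides. Myl4, an embryonic and atrial myosin light chain, had 20.7 and 21.9 CPM, against 2.02 and 2.2 CPM (log2 fold change 3.34, adjusted p = 0.000279). The 4 omissions left 2, 0, 1 and 0 mesoderm, 1, 1, 1 and 1 cardiac, and 5, 2, 4 and 3 hematoendothelial genes called lower. Kdr held only when double knockout replicate 1 was omitted (adjusted p = 0.0128, otherwise 0.0661 to 0.0854) and was lost with limma on log2(TPM + 0.1) (0.0701), and Lmo2 was lost without double knockout replicate 2 (0.067).

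Stromal and adhesion genes went both ways. Of 18 genes of the epithelial-mesenchymal transition list 7 were called lower and 2 higher (median -0.77). Cdh2, N-cadherin, had 2.57 and 4.78 CPM in the double knockout, against 41.2 and 40.8 CPM in the Smad3 knockout (log2 fold change -3.48, SE 0.48, adjusted p = 0.0017). Cdh1, E-cadherin, had 488 and 534 CPM, against 679 and 724 CPM, and was not called (log2 fold change -0.46, adjusted p = 0.14). The related repressors Zeb2 and Zeb1 differed: Zeb2 had 0.727 and 1.32 CPM, against 8.59 and 7.13 CPM (log2 fold change -2.94, adjusted p = 0.00428), and Zeb1 had 7.23 and 6.94 CPM, against 1.8 and 1.92 CPM (log2 fold change 1.93, adjusted p = 0.00162). Of 14 fibroblast and stroma genes 4 were called lower and 2 higher. The smooth muscle actin gene Acta2 had 3.45 and 4.92 CPM, against 25.6 and 24.5 CPM (log2 fold change -2.58, adjusted p = 0.00571, lost without double knockout replicate 1, 0.0652). Postn, the matrix protein periostin, had 9.82 and 8.47 CPM, against 0.222 and 0.222 CPM (log2 fold change 5.35, SE 0.39, adjusted p = 0.000113). The 4 omissions left 5, 3, 4 and 3 transition genes and 1, 2, 3 and 3 stroma genes called lower.

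Of 19 tested trophoblast genes 15 were called higher and 1 lower, the largest share called higher of any list, with a median of 3.05, which stayed 3.05 with the 2 genes that had no Smad3 knockout count set to their lower bound. Tfap2c, the AP-2 gamma factor of trophoblast, surface ectoderm and germ cells, had 172 and 169 CPM in the double knockout, against 24.4 and 26.4 CPM in the Smad3 knockout (log2 fold change 2.75, SE 0.20, adjusted p = 0.000101). The X-linked homeobox gene Esx1, known from the placental labyrinth, had 48.4 and 59.3 CPM, against 3.64 and 4.05 CPM (log2 fold change 3.81, SE 0.29, adjusted p = 0.000116). Hand1, a basic helix-loop-helix factor of trophoblast giant cells and extraembryonic mesoderm, had 60.6 and 62.7 CPM, against 9.73 and 14 CPM (log2 fold change 2.38, SE 0.37, adjusted p = 0.00306). The exception was Eomes, which trophoblast stem cells share with the streak and which fell as given above. The omissions left 15, 12, 13 and 14 genes called higher and 1 lower each.

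Members of several stages of the trophoblast lineage were among them; those in the next sentences were chosen after their values were seen. Elf5, a factor of trophoblast stem cells, had 2.45 and 2.39 CPM in the double knockout, against 0.0444 and 0.222 CPM in the Smad3 knockout (log2 fold change 4.18, SE 0.63, adjusted p = 0.00253). Syna, the syncytin that fuses labyrinth cells, had 25.2 and 24.8 CPM, against 0.489 and 0.617 CPM (log2 fold change 5.50, SE 0.46, adjusted p = 0.000187). Plac1, a placental gene on the X chromosome, had 51.6 and 68.5 CPM, against 1.27 and 0.79 CPM (log2 fold change 5.86, SE 0.52, adjusted p = 0.000235). All lay well apart between the groups. Prl3d1 (placental lactogen of giant cells) had 427 counts over the double knockout libraries, against 0 over the Smad3 knockout libraries, at least 131-fold higher, taking 3 counts as the Smad3 knockout's upper limit (adjusted p = 0.00413, and 0.136 with DESeq2). Tpbpa, a spongiotrophoblast protein, had 175 counts, against 0, at least 53.6-fold higher (adjusted p = 0.00903, and 0.0577 without double knockout replicate 2). Cdx2, which marks the founding trophoblast, is among the members that did not differ beyond their spread, as given above.

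Surface ectoderm genes shared the direction. Of 15, 10 were called higher and 0 lower (median 2.22), and Tfap2c, Gata3, Krt7 and Krt8 also stand in the trophoblast list. Gata3, a GATA factor of both tissues, had 34.1 and 26.1 CPM in the double knockout, against 3.49 and 3.75 CPM in the Smad3 knockout (log2 fold change 3.05, SE 0.37, adjusted p = 0.000958). Dlx3, a distal-less homeobox factor of skin and placenta, had 59.7 and 63.5 CPM, against 6.04 and 7.5 CPM (log2 fold change 3.19, SE 0.27, adjusted p = 0.000188). The simple epithelial keratin Krt7 had 180 and 180 CPM, against 19.6 and 25.3 CPM (log2 fold change 3.00, adjusted p = 0.000729), and Krt8 had 947 and 1163 CPM, against 251 and 341 CPM (log2 fold change 1.83, adjusted p = 0.0114). Without the 4 libraries in turn 6, 4, 4 and 4 members stayed called, and Krt8 held only without double knockout replicate 1 (adjusted p = 0.0438, otherwise 0.0504 to 0.102). In the primordial germ cell list of 12 genes 3 were called higher and 0 lower (median 0.65), and these 3, Tfap2c, Prdm14 and Dppa3, also stand in other lists.

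The 10 largest rises were led by gene families of the placenta. Ctsj, a cathepsin protease gene, had 5.81 and 9.97 CPM (710 counts) in the double knockout, against 0.0222 and 0 CPM (1 count) in the Smad3 knockout, a ratio of 652 with a 95% counting interval of 117 to 25780 (adjusted p = 0.00195). Prl2c5, a prolactin family hormone, had 3.11 and 7.68 CPM (481 counts), against 0.0222 and 0.0247 CPM (2 counts), a ratio of 221 with an interval of 60.8 to 1828 (adjusted p = 0.00821). Pparg, a nuclear receptor of fat cells and the labyrinth, had 24.5 and 33.6 CPM, against 0.355 and 0.395 CPM (log2 fold change 6.26, SE 0.47, adjusted p = 0.000116). Fam90a1b rose by 6.24 (adjusted p = 0.000179). Whole families were then looked up, after these values were seen. All 8 tested prolactin family genes of 25 annotated were called higher, with a median of 8.46, or 6.68 with the 5 that had no Smad3 knockout count set to their bound. Of 4 tested placental cathepsins 3 were called higher (median 8.22, or 4.62 with 2 at their bound), and of 3 tested Psg genes 2 (median 5.16). Of the X-linked families, 10 of 14 tested Rhox genes (median 3.88) and 8 of 9 Xlr genes (median 2.75) were called higher. The Fthl17 family, also X-linked, had 1 of 5 tested genes called higher and a median of -0.48. A gene with no Smad3 knockout count passed the expression filter through other groups, among them the double knockout, where it was high. Such a gene could only come out as higher or not called, so these counts are descriptions. The rises of Prl2c5 and Serpinb9g lost their calls without either Smad3 knockout library (adjusted p = 0.0653 and 0.0633 for Prl2c5, 0.0779 and 0.0524 for Serpinb9g), and that of Serpinb9g also without either double knockout library (0.0529 and 0.0562).

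Serpinb9 genes encode relatives of the granzyme B inhibitor, and 4 of the 10 largest rises belong to them. Serpinb9e had 58.1 and 67.1 CPM in the double knockout, against 0.577 and 0.296 CPM in the Smad3 knockout (log2 fold change 7.14, SE 0.81, adjusted p = 0.00102). Serpinb9f had 20.5 and 20 CPM, against 0.0666 and 0.148 CPM (log2 fold change 7.54, SE 0.93, adjusted p = 0.00151). Serpinb9g had 18.1 and 17.1 CPM, against 0.0222 and 0.173 CPM (log2 fold change 7.49, SE 1.37, adjusted p = 0.0111), and Serpinb9d rose by 6.92 (adjusted p = 0.00105). All 7 members tested were called higher (median 6.92). They sit in a cluster on chromosome 13. Reads can be shared between related genes, so the split of counts among members is uncertain, and how alike their transcripts are was not measured. The 250 bases before the annotated start of 3 of them are shown because these windows are close in sequence, though they lie outside the annotated genes. The sequences are from RefSeq on GRCm38.p6, plus strand, at chr13:33249358-33249607 for Serpinb9e, chr13:33323827-33324076 for Serpinb9f and chr13:33484540-33484789 for Serpinb9g, and capitals mark bases that differ from Serpinb9e where the windows align.
Serpinb9e: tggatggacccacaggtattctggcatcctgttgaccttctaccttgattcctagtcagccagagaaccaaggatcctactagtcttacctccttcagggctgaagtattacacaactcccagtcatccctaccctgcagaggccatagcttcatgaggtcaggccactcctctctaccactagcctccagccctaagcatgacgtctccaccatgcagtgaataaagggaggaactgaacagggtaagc
Serpinb9f: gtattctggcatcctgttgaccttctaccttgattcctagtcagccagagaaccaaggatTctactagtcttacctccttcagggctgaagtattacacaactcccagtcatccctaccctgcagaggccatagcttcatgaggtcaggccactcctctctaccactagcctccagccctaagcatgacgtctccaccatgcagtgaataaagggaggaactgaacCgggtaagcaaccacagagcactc
Serpinb9g: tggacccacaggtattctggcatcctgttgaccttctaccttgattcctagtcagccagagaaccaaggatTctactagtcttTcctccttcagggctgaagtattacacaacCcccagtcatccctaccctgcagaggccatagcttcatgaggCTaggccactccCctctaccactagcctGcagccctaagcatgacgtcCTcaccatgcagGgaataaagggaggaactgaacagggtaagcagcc
The window of Serpinb9f matched that of Serpinb9e at 233 of 235 aligned bases (99.1%). The window of Serpinb9g matched that of Serpinb9e at 236 of 246 (95.9%).

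Motifs of factors named above were counted in the same 250-base windows of all genes, on both strands, with 1 window per gene. The FOXH1 motif AATNCACA was in 1.54% of windows of genes called higher and 1.92% of those called lower, against 1.87% of all tested genes with a window. The SMAD palindrome GTCTAGAC was in 0.0962% and 0.182%, against 0.209%, and the GATA motif GATAAG was in 3.95% and 4.65%, against 4.64%. The AP-2 motif GCCNNNGGC was in 22.1% and 21.1%, against 20%. The T-box motif AGGTGTGA was in 1.06% and 0.73%, against 0.859%. The palindrome shares rest on 1 and 2 windows of called genes, too few to compare, and no test was made of the other shares. The windows number 1039 for genes called higher, 1096 for lower and 12916 for all tested, and sites outside them were not searched.

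Imprinted genes, expressed from the maternal or the paternal copy only and many of them active in placenta, were next. Of 31 genes 16 were called higher and 4 lower (median 1.06), where 7.53% and 8.01% of all tested genes were. H19, a maternally expressed non-coding RNA, had 6579 and 8104 CPM in the double knockout, against 90.6 and 99.7 CPM in the Smad3 knockout (log2 fold change 6.27, SE 0.26, adjusted p = 2.01e-05). Its paternally expressed neighbour Igf2, a fetal growth factor, had 1051 and 1230 CPM, against 198 and 198 CPM (log2 fold change 2.52, SE 0.22, adjusted p = 0.000212). Genes of both parental classes thus rose. Peg10, a retrotransposon-derived gene needed for the placenta, had 6598 and 11117 CPM, against 610 and 547 CPM (log2 fold change 3.94, SE 0.31, adjusted p = 0.000127). Plagl1, a zinc finger gene, had 30.2 and 33.4 CPM, against 0.688 and 0.345 CPM (log2 fold change 5.93, SE 0.48, adjusted p = 0.00016). Magel2, a paternally expressed gene of the Prader-Willi region, fell, with 0.561 and 0.464 CPM, against 15 and 20.2 CPM (log2 fold change -5.09, SE 0.44, adjusted p = 0.000214). Which parental copy the reads came from was not measured. The omissions left 13, 8, 9 and 10 members called higher and 3 lower each.

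Response genes of other pathways were read next. The BMP response list of 17 genes had 5 members called higher and 0 lower (median 0.56): Gata2, a GATA factor of trophoblast and blood, had 109 and 125 CPM in the double knockout, against 2.49 and 3.38 CPM in the Smad3 knockout (log2 fold change 5.32, SE 0.48, adjusted p = 0.000253), and Id2, an inhibitor of helix-loop-helix factors, had 52.8 and 54 CPM, against 18.7 and 19.6 CPM (log2 fold change 1.48, adjusted p = 0.00195). Gata3 and Hand1, called as given above, also stand in the trophoblast list. Of 20 WNT response genes 7 were called lower and 1 higher (median -0.94), with T and Rspo3 among them. Lef1, a WNT effector, had 4.57 and 4.06 CPM, against 25.1 and 23.3 CPM (log2 fold change -2.49, adjusted p = 0.00151), while Myc was the gene called higher (log2 fold change 1.24, adjusted p = 0.0351). Of 17 FGF response genes 8 were called lower and 0 higher (median -0.97): Dusp6, the ERK phosphatase, had 22 and 16.8 CPM, against 64.9 and 64.2 CPM (log2 fold change -1.73, SE 0.20, adjusted p = 0.000715), and Il17rd, an inhibitor of FGF signals, had 18.4 and 16.3 CPM, against 108 and 105 CPM (log2 fold change -2.62, adjusted p = 0.000106). Of 17 Notch pathway genes 5 were called lower and 0 higher (median -0.54), among them Dll3, a ligand-like gene of somite formation, with 1.04 and 0.557 CPM, against 6.28 and 10.4 CPM (log2 fold change -3.37, adjusted p = 0.00402). The omissions left 6, 4, 7 and 5 FGF genes, 2, 1, 2 and 3 WNT genes and 2, 0, 2 and 1 Notch genes called lower. Myc was lost without any of the 4 (adjusted p = 0.0982 to 0.208), without either day 0 WT library (0.0602 and 0.0605) and with limma on log2(TPM + 0.1) (0.0505), and Dll3 without double knockout replicate 2 (0.0536).

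Antigen presentation and interferon genes were lower. Of 20, 9 were called lower and 1 higher (median -1.23). Psmb8, an immunoproteasome subunit, had 0.374 and 0.232 CPM in the double knockout, against 14.2 and 15.3 CPM in the Smad3 knockout (log2 fold change -5.58, SE 0.42, adjusted p = 0.000116). Irf1, an interferon-responsive transcription factor, had 14 and 12.2 CPM, against 80.8 and 85.5 CPM (log2 fold change -2.67, SE 0.23, adjusted p = 0.000207). Tap2, a peptide transporter subunit, had 1.87 and 1.3 CPM, against 11.8 and 17.9 CPM (log2 fold change -3.22, adjusted p = 0.00299), and the class I gene H2-Q7 had 3.9 and 3.66 CPM, against 11.2 and 12.2 CPM (log2 fold change -1.63, adjusted p = 0.00213). Oas1a, an antiviral enzyme, was the gene called higher (log2 fold change 1.76, adjusted p = 0.00835, and 0.0662 to 0.0748 without Smad3 knockout replicate 1 or 2 or double knockout replicate 2). Of 8 tested guanylate-binding proteins, looked up after their values were seen, 6 were called lower (median -3.04), Gbp2 with 2.53 and 4.55 CPM, against 53.3 and 51.1 CPM (adjusted p = 0.000546). The omissions left 5, 6, 5 and 5 genes of the list called lower.

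Lists of general cell functions moved little. Of 32 cytosolic ribosomal proteins 0 were called (median -0.34), and none was called with any 1 of the 4 libraries left out, while the summed share of counts of 83 ribosomal protein genes was 7.01% and 6.38% in the double knockout libraries, against 8.35% and 8.33% in the Smad3 knockout libraries. Of 26 respiratory chain genes 1 was called, Atp5a1, which lies beyond Smad2 on chromosome 18. Of 22 hypoxia and glycolysis genes 1 rose and 1 fell: Ndrg1 had 466 and 581 CPM, against 171 and 175 CPM (log2 fold change 1.60, adjusted p = 0.000925), and Adm had 11.2 and 17.8 CPM, against 40.8 and 44.7 CPM (log2 fold change -1.56, adjusted p = 0.00534, and 0.0542 without double knockout replicate 1). In the G2/M list of 18 genes 1 was called, in the p53 list of 16 genes 1 each way and in cholesterol synthesis 2 of 18. The HOX list, which is not one of general functions, ranged more widely, from -5.20 to 1.13 (median -0.13). Among its 15 tested genes 1 was called, Hoxd1, with 0.498 and 0.209 CPM, against 2.66 and 3.31 CPM (log2 fold change -3.06, adjusted p = 0.00936). The HOX median was -1.47, 0.57, -0.35 and 0.08 in the 4 omissions.

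**Figure D3:**
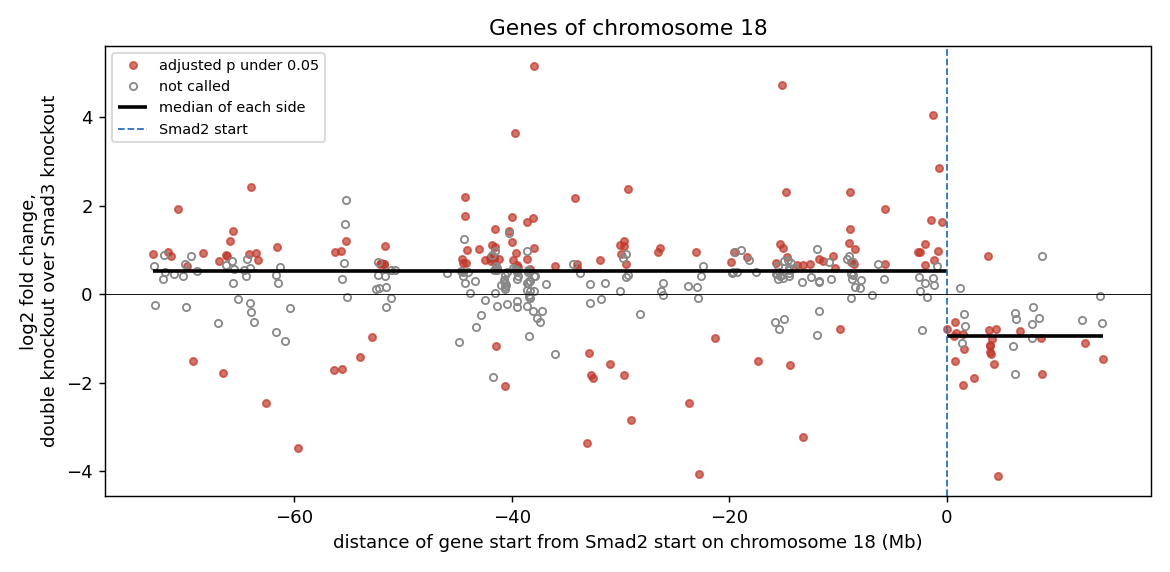
Log2 fold change, double knockout over Smad3 knockout, of chromosome 18 genes with at least 1 CPM, against the distance of the gene start from the Smad2 start in Mb. Genes beyond Smad2 centre at -0.94 and those before it at 0.53, shown as bars.

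Position along chromosome 18 went with the difference. Of 39 genes beyond Smad2, toward the end of the chromosome, 36 were lower and 3 higher in the double knockout, 22 and 1 of them called, with a median log2 fold change of -0.94 (quartiles -1.27 and -0.62). Of 314 genes before Smad2, 244 were higher and 70 lower, 104 and 24 of them called, with a median of 0.53 (quartiles 0.11 and 0.82). The 14550 genes of other chromosomes had a median of 0.00. These sets hold only genes with at least 1 CPM. Both double knockout libraries showed the split, with medians of -0.80 and -0.90 beyond Smad2 and 0.52 and 0.49 before it, relative to the Smad3 knockout mean. The nearest of these genes on each side were Zbtb7c at -0.421 Mb (log2 fold change 1.63) and Ier3ip1 at 0.688 Mb (-0.94), so the step is placed near Smad2 and no more closely. Smad2 is the targeted gene, so its own value of -0.79 does not help to place it. Relative to WT, the Smad2 knockout libraries had medians of -0.25 and -0.26 beyond and -0.32 and -0.22 before Smad2, and the Smad3 knockout libraries -0.21 and -0.12 beyond and -0.09 and -0.13 before, so neither showed such a step. Atp5a1, an ATP synthase subunit 1.532 Mb beyond Smad2, had 404 and 381 CPM in the double knockout, against 857 and 988 CPM in the Smad3 knockout (log2 fold change -1.23, SE 0.20, adjusted p = 0.00366, and 0.0539 without double knockout replicate 2). Of all 443 tested genes of chromosome 18, whatever their level, 23.7% were called higher and 12.2% lower. Smad2, Smad4, Atp5a1, Zeb1, Cdh2 and Gata6 lie on this chromosome, as do Kif20a, the G2/M gene called (log2 fold change 0.76, adjusted p = 0.0182), and Pmaip1, the p53 gene called lower (-0.79, adjusted p = 0.0302), and the part of its shift in their values was not tested. Both Kif20a (adjusted p = 0.0855 to 0.138) and Pmaip1 (0.0803 to 0.238) lost their calls in each of the 4 omissions, and Pmaip1 also with limma on log2(TPM + 1) (0.124) and log2(TPM + 0.1) (0.143) and without either day 0 WT library (0.0522 and 0.0526). DNA copy number was not measured. The X chromosome had 138 of 733 genes called higher (18.8%) and 89 lower (12.1%), and without the Rhox, Xlr and Fthl17 families and Xist 118 and 89 of 699.

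The loss of Smad2 with Smad3 absent was then set beside its loss with Smad3 present (Smad2 knockout over WT, which share no library with the groups above). The Smad2 knockout libraries also lacked Y-linked reads: Uty had 0 and 0 CPM there, against 28.7 and 18.4 CPM in WT, and 5 of 5 tested Y-linked genes were called lower (median -9.27). The Smad2 knockout libraries also gave 14.4% and 13.6% of their counts to ribosomal protein genes, against 5.96% and 7.36% in WT. Of 32 cytosolic ribosomal protein genes 28 were called higher in the Smad2 knockout over WT, and of 26 respiratory chain genes 19, with 0 lower in either list. The part of these differences in the comparison was not tested. Smad2 loss with Smad3 present gave 6904 calls (35.5%), 2993 higher (15.4% of tested genes) and 3911 lower (20.1%). Of the 1466 genes called higher in the double knockout over the Smad3 knockout, 511 were also called higher in the Smad2 knockout over WT, 174 were called lower and 781 were not called, and of the 1559 called lower 765 were also lower, 74 were higher and 720 were not called. Across all genes, which are not independent replicates, Pearson's r between the log2 fold changes was 0.27 and Spearman's rho 0.18. The difference of the differences, tested in the same fit, was called for 3673 genes (18.9%), 2209 higher (11.3%) and 1464 lower (7.52%). The Smad2 knockout over WT moved with gene length (rho -0.50 across genes, against 0.04 for the double knockout over the Smad3 knockout), and with length corrected in each library 1259 genes were called, 1094 of them among the 3673 in the same direction and 43 of the 3673 with the sign turned.

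**Figure D4:**
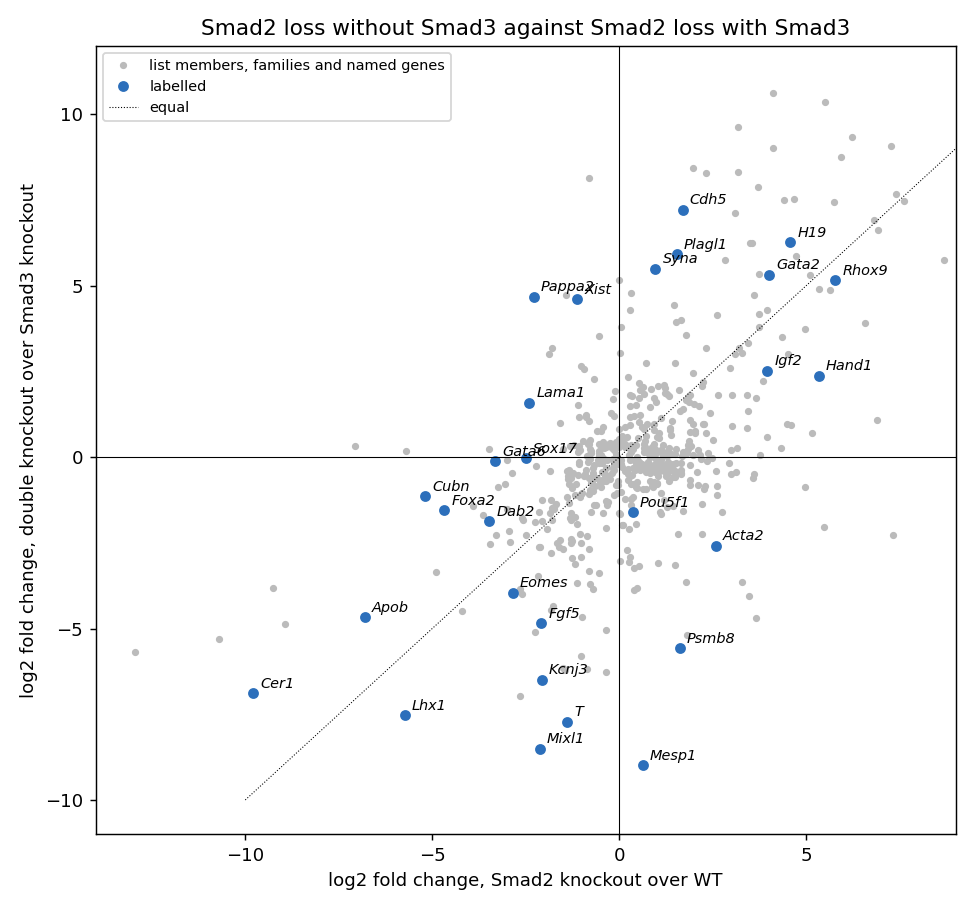
Log2 fold change of list members, family members and named genes, Smad2 knockout over WT across and double knockout over Smad3 knockout upward, with the dotted line where both are equal. Trophoblast genes such as Gata2 and Rhox9 lie high on both axes, Psmb8 and Acta2 lie low upward and high across, and Lama1 the reverse.

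Trophoblast genes had like counts in both settings: 15 of 19 were called higher and 1 lower in each, with medians of 3.05 in the double knockout over the Smad3 knockout and 3.73 in the Smad2 knockout over WT. Naive genes were called higher in 11 of 20 (median 1.59) with Smad3 absent and in 12 of 20 (median 1.26) with Smad3 present, and primed genes were called lower in 11 of 12 (median -2.30) and 10 of 12 (median -1.60). Streak genes were called lower in 13 of 18 with Smad3 absent and in 3 of 18 with Smad3 present (2 higher), where the Smad2 knockout libraries differed from each other: T had 74.3 and 0.79 CPM in the Smad2 knockout libraries, against 90.3 and 106 CPM in WT. The difference of differences was not called for T (-6.33, adjusted p = 0.0517), Mixl1 (-6.38, adjusted p = 0.0761) or Eomes (-1.10, adjusted p = 0.296). It was called for 5 of the 18 streak genes, where 18.9% of all tested genes were: Mesp1 (-9.61, adjusted p = 0.0255), Mesp2 (-2.35, adjusted p = 0.0157), Fgf17 (-3.18, adjusted p = 0.0237), Msgn1, a factor of presomitic mesoderm (-8.36, adjusted p = 0.0343), and Cdx2 (-3.71, adjusted p = 0.0356). Mesp1 had 6.3 and 0.0854 CPM in the Smad2 knockout libraries and lost this call with length corrected (adjusted p = 0.0509). In WT stem cells at day 0 Fgf17 had 31.8 and 30 CPM and Mesp2 2.6 and 2.11 CPM, against 1.9 and 5.04 CPM and 1.46 and 2.59 CPM in WT at day 4.

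Extraembryonic endoderm genes were called lower in 8 of 22 with Smad3 absent and in 20 of 22 with Smad3 present. Gata6 had 1.93 and 1.34 CPM in the Smad2 knockout, against 15.4 and 17.4 CPM in WT, and its difference of differences was called (3.21, adjusted p = 0.00335). Lama1 rose with Smad3 absent and had 27 and 30.3 CPM in the Smad2 knockout, against 127 and 176 CPM in WT, a difference of differences of 3.99 (adjusted p = 0.000929). Psmb8 fell with Smad3 absent and had 49.6 and 27.8 CPM in the Smad2 knockout, against 9.67 and 15.5 CPM in WT (difference of differences -7.20, adjusted p = 0.000929). Acta2 behaved likewise, with 66.6 and 22 CPM in the Smad2 knockout, against 6.2 and 8.56 CPM in WT (difference of differences -5.17, adjusted p = 0.00382). For Lama1, Psmb8 and Acta2 the direction itself turned between the settings. Fgf5 fell in both and further with Smad3 absent (difference of differences -2.76, adjusted p = 0.00243), and H19 rose in both and further with Smad3 absent (1.69, adjusted p = 0.00911). The counts and differences above carry no correction for gene length, with which 1094 of the 3673 calls were kept in direction. Psmb8 kept its call with it (-6.69, adjusted p = 0.00109), and corrected values of the other genes of this paragraph are not given.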

How the data were processed

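The authors deposited 1 RSEM gene table per RNA library. Its expected counts (RSEM output, per the file headers) apportion reads between genes, so 12.2 to 14.6% of the genes have fractional values. The TPM column was deposited beside them, computed by RSEM per the file headers. The submitters' processing notes list FastQC 0.11.5, Bowtie2, STAR, RSEM, HOMER and mm10 without saying which step used which, and neither annotation version nor strand setting is stated there. Symbols and positions were looked up by gene ID in GENCODE M21 (53274 of 53379 matched without the version).

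Rounded counts of the 10 RNA libraries entered 1 fit with edgeR 4.0.16 under R 4.3.3 (TMM scaling, filterByExpr, quasi-likelihood F test, 5 residual degrees of freedom, common biological coefficient of variation 0.248). Depth was 35733249 to 53672980 counts per library. Bounds for genes with no count (3 counts over a group) and 95% exact intervals cover counting error only. The fit was tested on simulated data, with 200 genes changed 2-fold or 4-fold between the double knockout and the Smad3 knockout. It called 32% of the 2-fold and 92% of the 4-fold changes, with 12 false calls. Libraries of each group differed by more than sampling noise, with a median chi-square 7.13 to 43.6 times that of sampling alone, so none was merged. Pearson's r of log2 TPM within groups was 0.969 to 0.993.

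The comparison, the gene lists and the named genes were chosen with earlier results of these data known, and lists carry counts and medians with no test. The naming rule took Smad2, Smad3, a panel of 20, up to 4 called members of each list in its main direction plus 1 in the other, then the 10 genes that rose and the 10 that fell furthest among calls whose libraries do not overlap and whose higher group averages 5 CPM or more, and 5 and 5 for the difference of differences with the same minimum level, where libraries may overlap. Length kept some of them out, and a few list members are not reported here, though list counts and medians include them. Genes named outside the rule, after their values were seen, were Xist, Elf5, Cdx2, Syna, Plac1, Prl3d1, Tpbpa, Gata4, Foxh1, Smad4, Cdh1, Gata1, Pecam1, Msgn1 and Gbp2. Alternatives were scaling by RLE or by library totals, dropping the filter or raising it to 1 CPM, blocks for replicate number (also crossed, added after seeing the data) or submission, a fit of the compared groups only, DESeq2 1.42.0, limma 3.58.1 on log2(TPM + 1) or log2(TPM + 0.1) of the 14328 genes with a mean TPM of 1 or more, a 1.5-fold threshold, a gene-length offset per library, and omission of each library.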

Additional observations from a re-analysis of the deposited data

Results flagged for a closer look

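The loss of Smad2 on top of Smad3 differed from its loss with Smad3 present for 3673 genes by edgeR's quasi-likelihood test of the difference of differences, (double knockout - Smad3 knockout) - (Smad2 knockout - WT), in log2 units. The 5 highest by the naming rule were Gm28036 at 14.69 (adjusted p = 0.000929), Gm15899 at 7.40 (adjusted p = 0.00773), Pappa2, a protease of insulin-like growth factor binding proteins, at 6.96 (adjusted p = 0.0059), Gm49394 at 6.13 (adjusted p = 0.0406) and Adnp at 5.88 (adjusted p = 0.00243). Gm28036 had 54.2 and 46.1 CPM in the double knockout libraries and 53.7 and 43.6 CPM in the Smad3 knockout libraries, and 0 and 0 CPM in the Smad2 knockout libraries and 94.8 and 58.5 CPM in the WT libraries. Adnp had 27 and 26.2 CPM in the double knockout and 21.8 and 25.4 CPM in the Smad3 knockout, and 0.291 and 1.17 CPM in the Smad2 knockout and 43.1 and 36 CPM in WT. In WT stem cells at day 0 Gm28036 had 0 and 0 CPM and Adnp 2.09 and 3.42 CPM. Their low levels were thus not particular to the Smad2 knockout. For both genes a pair of values differs between the Smad2 knockout and WT at day 4, and the double knockout was not called against the Smad3 knockout. Pappa2 was the reverse, with 12.7 and 12.7 CPM in the double knockout and 0.489 and 0.494 CPM in the Smad3 knockout, and 0.0794 and 0 CPM in the Smad2 knockout and 0.183 and 0.19 CPM in WT.

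The 5 lowest were Rpl36a-ps3 at -14.73 (adjusted p = 0.0438), Mesp1 at -9.61 (adjusted p = 0.0255), Sprr2a2 at -7.53 (adjusted p = 0.0385), Rn7s2 at -7.53 (adjusted p = 0.00315) and Psmb8 at -7.20 (adjusted p = 0.000929). Fitted values of Gm28036, Gm15899, Pappa2, Rpl36a-ps3 and Mesp1 rest on a group with no more than a few counts and depend on the fit. Those of Rpl36a-ps3 and Sprr2a2 also rest on 1 Smad2 knockout library: Rpl36a-ps3 had 0.212 and 16.4 CPM in the Smad2 knockout and 0 and 0 CPM in WT, and Sprr2a2 had 31.7 and 0.32 CPM in the Smad2 knockout and 1.33 and 1.55 CPM in WT. The Smad2 knockout level of Mesp1 likewise came from 1 library, with 6.3 and 0.0854 CPM, against 1.21 and 2.88 CPM in WT. With the length offset Gm49394 (adjusted p = 0.0955), Rpl36a-ps3 (0.0949), Mesp1 (0.0509) and Sprr2a2 (0.0859) lost their calls, and the others named here kept theirs. Rpl36a-ps3 is a pseudogene, Rn7s2 belongs to a family of near copies, and Gm49394 overlaps Igf2 on the same strand of chromosome 7. The reads of these genes may come from other genes, which was not tested.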

How the results depend on the processing

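The 3025 calls (1466 higher, 1559 lower) were 6498 (3282 and 3216) with the compared groups fitted alone, 1524 (686 and 838) with a 1.5-fold threshold and 1694 (696 lower) with limma on log2(TPM + 0.1); limma on log2(TPM + 1) called 836 lower. Leaving out 1 of the 10 libraries gave 1028 to 4409 calls, 441 to 2395 higher and 491 to 2113 lower; a lone library is assumed to vary like the other groups. The 3673 calls of the difference of differences were 5512 with limma on log2(TPM + 1), 1389 with the 1.5-fold threshold, 1259 with the length offset and 397 to 7003 with 1 library left out. Replicate numbers did not pair all samples: deviations correlated at -0.18 to -0.04 in the 4 pairs of groups with the double knockout (-0.14 with the Smad3 knockout) and at 0.11 to 0.51 in the 6 without it, where the number is also the submission. The submission block gave 3368 calls and 4352 of the difference of differences, the replicate block 3036 and 3775, or 3591 with the numbers crossed, a fit added after seeing the data.

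Sox17, Gata6 and Cdx2, never called, changed sign. Sox17 was 0.00 with the replicate block, 0.18 with the submission block and -0.35 to 0.37 with 1 library left out. Gata6 was -0.41 to 0.12 and Cdx2 -0.04 to 0.16 with 1 library left out, and Cdx2 was -0.27 with the submission block. The cause was not tested. The chromosome 18 medians kept their sign with the stricter filter. Depth limits genes of a few counts, given as ratios with intervals.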
